A study of Homo sapiens with 4 samples.

Results

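To describe how lung cancer cells that no longer respond to an EGFR inhibitor express the machinery for lactate and pyruvate, 9 genes were followed in PC9 and PC9OR cells. They are the monocarboxylate transporters SLC16A7, SLC16A1, SLC16A3, SLC16A9 and SLC16A13, the transporter chaperone BSG, the lactate dehydrogenase subunits LDHA and LDHB, and the mitochondrial pyruvate carrier subunit MPC1. These 9 of the 16813 genes listed in at least 1 library were chosen by symbol with the difference between the lines already known, and the question behind the choice was what takes the place of SLC16A7. Their fold changes are therefore a description, and no p is given for them. Where a member is said to be called, the call only places it beside the share of all genes called by the same rule. It is no evidence for the member. The further gene lists used below were also drawn up with earlier results of these data known. An adjusted p printed for a gene of those lists is likewise a description, not an independent test. PC9 is a human lung adenocarcinoma line whose growth depends on a mutant EGFR, labelled as wild-type control, and PC9OR is a derivative of it, also labelled wild type, that is resistant to osimertinib, an irreversible inhibitor of mutant EGFR. Both lines were kept in the same serum-containing medium, PC9OR is 1 derived line, and whether the drug was in the medium at harvest is not given in the sources used here. Sequencing covered 4 libraries, replicates 1 and 2 of either line, which the labels call biological replicates. They do not add that these were separate cultures, so the errors measure only the spread between these libraries, which may be technical.

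Lactate and pyruvate cross the plasma membrane together with a proton through monocarboxylate transporters (MCTs) of the SLC16 family. MCT1 (SLC16A1) works in either direction in most tissues, MCT4 (SLC16A3) is known for exporting lactate from glycolytic cells, and MCT2 (SLC16A7) has a high affinity for pyruvate and lactate. MCT1 and MCT4 need basigin (BSG) to reach the surface, whereas MCT2 pairs mainly with embigin (EMB). Lactate dehydrogenase is a tetramer of LDHA and LDHB subunits that interconverts pyruvate and lactate, and tetramers rich in LDHA favour lactate formation. MPC1 and MPC2 together form the carrier that brings pyruvate into the mitochondrion.

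The expected counts, estimated reads per gene that need not be whole, summed to between 23201307 and 32203998 per library, and 3 counts, taken as the smallest detectable number for counting error only, correspond to between 0.0932 and 0.129 CPM, the count scaled to library size. All 5 epithelial markers were above 1 FPKM, the deposited level scaled by transcript length and library size, in every library, with a sum between 2091 and 2391 FPKM in PC9 and between 4528 and 4669 FPKM in PC9OR. The higher sum came from the keratins KRT8, KRT18 and KRT19, while CDH1 (E-cadherin) had 69.5 and 49.5 FPKM in PC9 and 22.0 and 20.1 FPKM in PC9OR, a log2 fold change of -1.46, and EPCAM had a log2 fold change of -0.01. Of the 4 markers of lung adenocarcinoma lineage, SFTPB and SFTPC were listed in no library, and NKX2-1 and NAPSA together reached at most 0.21 FPKM. The 4 fibroblast markers summed to at most 0.12 FPKM and the 4 leukocyte markers to between 0.22 and 0.38 FPKM in PC9 and between 0.02 and 0.07 FPKM in PC9OR. The 3 endothelial markers summed to between 4.10 and 6.47 FPKM in PC9 and between 0.86 and 0.88 FPKM in PC9OR, almost all of it CDH5, while PECAM1 reached at most 0.39 FPKM and VWF at most 0.01 FPKM. What part these marker differences have in the values below was not tested.

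In PC9OR cells SLC16A7 was nearly lost, LDHA and SLC16A13 were lower and MPC1 was higher, whereas the more abundant transporters SLC16A1 and SLC16A3 stayed within 1.22-fold and 1.08-fold of PC9. A gene was called when its p in edgeR's quasi-likelihood test, adjusted by Benjamini and Hochberg's method over all 13148 genes tested, was under 0.05. By that rule 1 of the 8 members tested was higher in PC9OR (MPC1), 3 were lower (SLC16A7, SLC16A13 and LDHA) and 4 were not called, while the same rule called 15.6% of all tested genes higher and 20.8% lower. At more than 2-fold as well as this p, MPC1 was higher and SLC16A7 and SLC16A13 were lower, against 6.13% and 11.6% of all tested genes. The libraries of the lines did not overlap in CPM for 7 of the 8, where 77.8% of all tested genes did not. The median log2 fold change (PC9OR minus PC9) was -0.30 over the 8 and 0.01 over all genes tested. Without a PC9 library more members were called lower, and without a PC9OR library fewer were. These fits leave a single library in 1 line, and the share of all genes they called was not computed. Longer transcripts had lower fold changes (Spearman rho -0.34 across tested genes). The log2 CPM of PC9 replicate 2 minus replicate 1 also followed length (-0.38), a sign that depends on the order of the replicates. An offset for transcript length was therefore also fitted. With it 20.0% of all genes were called higher and 18.4% lower, and of the members MPC1 was higher and SLC16A7, SLC16A13, LDHA and BSG were lower.

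**Figure D1:**
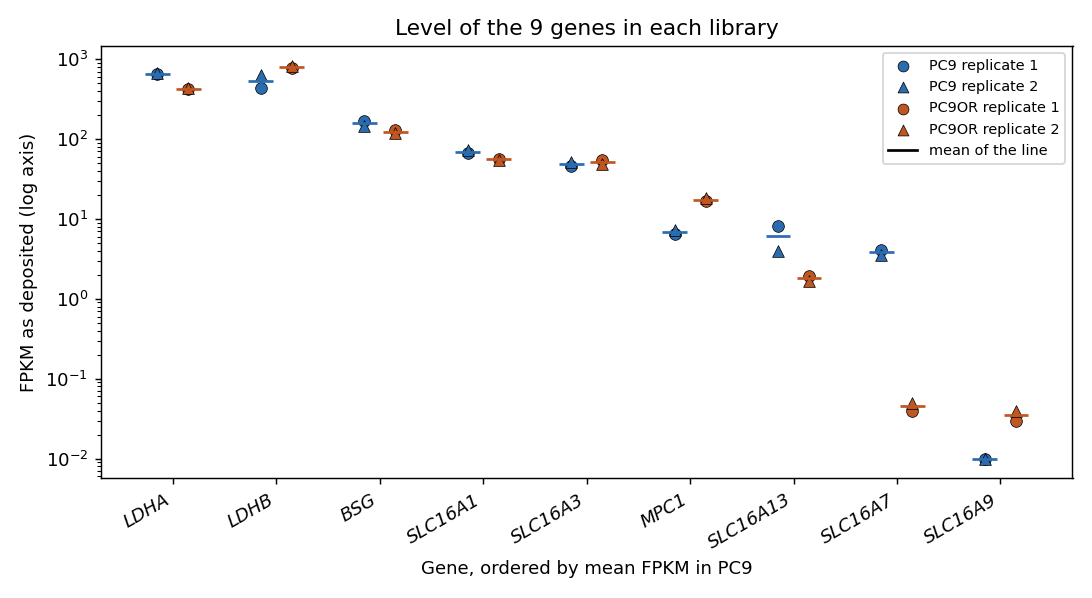
Level of each of the 9 genes in each library, in FPKM as deposited on a log axis, with PC9 in blue, PC9OR in orange, circles for replicate 1, triangles for replicate 2 and a bar at the mean of each line. SLC16A7 drops from 3.82 to 0.045 FPKM while SLC16A1 and SLC16A3 stay between 46.3 and 72.3 FPKM in all 4 libraries.

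SLC16A7 (Entrez gene 9194) spans bases 59989810 to 60183636 of chromosome 12, plus strand, in GRCh37, the build of all gene positions given here, and its counted transcript is 11939 bases long. It had 1611 and 1761 expected counts in PC9 replicates 1 and 2 and 24 and 29 in PC9OR. All 4 libraries were above the 3-count floor, so a residual signal was detected in PC9OR, and the lines were far apart. On the FPKM scale the level was 4.09 and 3.55 in PC9 and 0.04 and 0.05 in PC9OR, and in CPM the PC9 mean of 64.9 ± 5.42 (SD, n = 2) was 78.4 times the PC9OR mean of 0.828 ± 0.111 (SD, n = 2). As a log2 fold change this was -6.29 with a standard error of 0.18, and 79 of the 13148 tested genes had a lower one. With the offset for transcript length it was -5.43, and with 1 library left out in turn it lay between -6.42 and -6.15. In bulk RNA, fewer cells that express a gene and less RNA per cell cannot be told apart.

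The 10 tested genes nearest to SLC16A7 on the chromosome, 5 on each side, had no fold change near that of SLC16A7. Their log2 fold changes ran from -1.57 to 1.48 with a median of 0.09. The nearest of them were LRIG3, which ends at base 59314285, and USP15, which starts at base 62654119. The stretch between these genes and SLC16A7 was therefore not sampled. Of these 10, edgeR's test called 1 higher and 1 lower, against 15.6% and 20.8% of all tested genes. The RefSeq table for GRCh38.p14 gives 2 transcription starts for SLC16A7, and the 30 bases just before each are shown because this is the member whose RNA nearly disappeared. Nothing in them was capitalised, since they hold none of the motifs searched for below. The windows, named by start and with their position on the plus strand, are
SLC16A7 start 1 (chr12:59595999-59596028): cagcctgtccggcccccacccctggcgcgc
SLC16A7 start 2 (chr12:59689340-59689369): tgttcaggattctaaaaagagcaatggttc
The 250 bases before start 1 were 60.4% G or C and those before start 2 were 35.2%. The deposited gene values do not separate the starts.

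By their log2 CPM over the 4 libraries, centred on the mean of each gene, the 5 tested genes most like SLC16A7 were SLC44A4, MCAM, QPCT, DGLUCY and AGMAT, at Euclidean distances between 0.231 and 0.501. MCAM, a cell adhesion molecule of the immunoglobulin superfamily, had the most reads of them, with 3447 and 3924 expected counts in PC9 and 75 and 77 in PC9OR. QPCT, which encodes glutaminyl-peptide cyclotransferase, had 117 and 177 in PC9 and 0 and 1 in PC9OR. SLC44A4, DGLUCY and AGMAT had 0 counts in both PC9OR libraries, so their distance depends on the prior count that keeps the logarithm finite. Over 4 libraries, any gene with a similar drop between the lines lies near by this measure.

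SLC16A1 (Entrez gene 6566, chromosome 1 from 113454469 to 113500215, minus strand) was the most abundant of the transporters in every library. Its level was 66.4 and 72.3 FPKM in PC9 and 56.3 and 55.3 FPKM in PC9OR, so both PC9OR libraries were below both PC9 libraries. The log2 fold change was -0.29 with a standard error of 0.11 and did not pass the call rule. The offset for transcript length brought it to -0.11, while without PC9 replicate 1 it was -0.37 and without PC9 replicate 2 it was -0.22, and in either fit with a single PC9 library the gene was called lower. SLC16A1-AS1, a transcript on the opposite strand that overlaps the start of SLC16A1, had 4.13 and 2.04 FPKM in PC9 and 1.22 and 1.80 FPKM in PC9OR, with a log2 fold change of -1.01 (SE 0.44; edgeR adjusted p = 0.128). A stranded kit was used, but whether strand was used in the counting is not given in the sources used here, so reads in the overlap may be split between them.

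SLC16A3 (Entrez gene 9123, chromosome 17 from 80175810 to 80219005, plus strand) was the only member whose lines overlapped. It had 46.3 and 51.7 FPKM in PC9 and 54.4 and 49.1 FPKM in PC9OR. The log2 fold change was 0.11 with a standard error of 0.12, between 0.01 and 0.19 with 1 library left out, and 0.02 with the offset for length. Of the 50-base words of its longest coding transcript, 10.3% also occur in transcripts of other annotated genes. That transcript has 4830 bases and the counted length is 2049 bases, so this share need not hold for the counted reads.

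The other SLC16 members were present at low levels. SLC16A13, which encodes the less studied MCT13 (Entrez gene 201232, chromosome 17 from 6939334 to 6943436, plus strand), had 8.12 and 3.95 FPKM in PC9 and 1.95 and 1.67 FPKM in PC9OR. Both PC9OR libraries were lower than both PC9 libraries, but the PC9 replicates differed by 1.01 on the log2 CPM scale. The log2 fold change was -1.70 with a standard error of 0.38, it was -1.12 without PC9 replicate 1 and -2.14 without PC9 replicate 2, and without PC9OR replicate 2 it was -1.61 and no longer called. SLC16A9, which encodes MCT9 (Entrez gene 220963, chromosome 10 from 61410522 to 61495760, minus strand), had 1 and 2 expected counts in PC9 and 5 and 8 in PC9OR. The PC9 values are under the floor of 3 counts, the gene was not kept by the count filter, and no fold is given for it.

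Because FPKM is scaled by transcript length, the levels of different transporters can be added. The summed level of SLC16A1, SLC16A3 and SLC16A7, the lactate carriers MCT1, MCT4 and MCT2, was 116.7 and 127.5 FPKM in PC9 and 110.8 and 104.4 FPKM in PC9OR. The mean was 122.1 ± 7.59 (SD, n = 2) in PC9 and, with a difference of -14.5 FPKM, 107.6 ± 4.48 (SD, n = 2) in PC9OR. The libraries of the lines did not overlap, as was so in CPM for 77.8% of all tested genes. SLC16A1, which was not called, averaged 69.3 FPKM in PC9 and 55.8 FPKM in PC9OR. The sum was not computed with the offset for length. With 2 libraries against 2, an exact permutation test cannot reach 0.05, so no test was made of this sum. SLC16A7 made up 3.50% and 2.79% of the sum in PC9 and 0.0361% and 0.0479% in PC9OR. The share of SLC16A3 was 39.7% and 40.5% in PC9 and 49.1% and 47.0% in PC9OR, and that of SLC16A1 was 56.8% and 56.7% against 50.8% and 52.9%. In FPKM, then, the SLC16A7 lost from PC9OR was a small part of the sum, and neither SLC16A1, SLC16A3 nor SLC16A13 was called higher. The size of that part depends on the length of 11939 bases assigned to SLC16A7. In CPM, which is not scaled by length, the PC9 means were 64.9 for SLC16A7, 379.5 for SLC16A1 and 135.1 for SLC16A3.

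**Figure D2:**
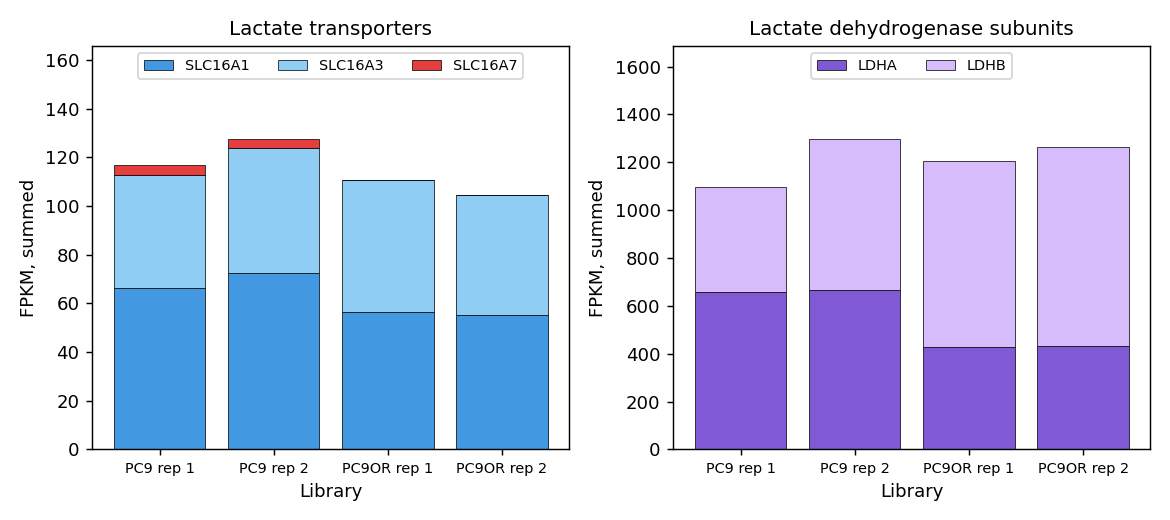
Stacked FPKM in each library of the lactate transporters SLC16A1, SLC16A3 and SLC16A7 (left) and of the lactate dehydrogenase subunits LDHA and LDHB (right). The transporter sum is between 104.4 and 127.5 FPKM and loses the thin SLC16A7 segment in PC9OR, and LDHA takes 59.8% and 51.2% of its sum in PC9 and 35.4% and 34.2% in PC9OR.

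BSG (Entrez gene 682, chromosome 19 from 571277 to 583494, plus strand), the chaperone of MCT1 and MCT4, had 168 and 146 FPKM in PC9 and 128 and 118 FPKM in PC9OR. The PC9OR libraries lay below both PC9 libraries, with a log2 fold change of -0.32 and a standard error of 0.12, and the gene was not called. With the offset for length the value was -0.48 and the gene was called lower, as it was without PC9 replicate 2 (-0.42). BSG stood at 1.44 and 1.14 times the summed transporter FPKM in PC9 and at 1.16 and 1.13 times in PC9OR, so this ratio overlapped between the lines. EMB, the embigin gene, fell to 2.64 and 2.47 FPKM in PC9OR from 4.07 and 4.21 FPKM in PC9, with a log2 fold change of -0.67 (SE 0.13; edgeR adjusted p = 0.0202), and with the offset for length it was at -0.45 and not called.

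In FPKM the transcripts of the lactate dehydrogenase subunits exchanged their order, though LDHA and LDHB were close in PC9 replicate 2, at 664 and 633 FPKM. LDHA (Entrez gene 3939, chromosome 11 from 18416107 to 18429972, plus strand) had 656 and 664 FPKM in PC9 and 426 and 432 FPKM in PC9OR. The replicates were close and the lines were apart, with a log2 fold change of -0.59 and a standard error of 0.10. The value was -0.56 without PC9OR replicate 1 and -0.61 without PC9OR replicate 2, and in either fit, with a single PC9OR library, the call was lost. The 10 tested neighbours of LDHA on the chromosome had log2 fold changes from -2.69 to -0.12. Their median was -0.29, against 0.01 over all tested genes. Of these 10, 3 were called lower, against 20.8% of all tested genes, and the largest drops were those of SAA2 (-2.69) and SAA1 (-2.35). The median was -0.28 for the neighbours of SLC16A1 and between -0.16 and 0.26 for those of each other member.

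LDHB (Entrez gene 3945, chromosome 12 from 21788276 to 21910791, minus strand) had 441 and 633 FPKM in PC9 and 778 and 831 FPKM in PC9OR. The PC9OR libraries were the highest, but PC9 replicate 2 exceeded replicate 1 by 0.55 on the log2 CPM scale, nearly as much as the log2 fold change of 0.60 (SE 0.20) between the lines. LDHB was not called. Without PC9 replicate 1 the value was 0.35 and without PC9 replicate 2 it was 0.89, and in both of these fits the gene was called higher. Words of 50 bases shared with other annotated genes made up 58.5% of its longest coding transcript, found in LDHBP2 and 1 further gene known by identifier only, and 12.2% of that of LDHA, so a part of these reads could be assigned either way.

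As a share of the subunits' summed level, LDHA was 59.8% and 51.2% of the FPKM in PC9 and 35.4% and 34.2% in PC9OR. LDHA was thus the larger subunit transcript in both PC9 libraries and LDHB in both PC9OR libraries. The ratio of LDHA to LDHB averaged 1.27 ± 0.311 (SD, n = 2) in PC9 cells, against 0.534 ± 0.0202 (SD, n = 2) in PC9OR. The sum of the subunits, 1097 and 1297 FPKM in PC9 and 1204 and 1262 FPKM in PC9OR, overlapped between the lines.

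MPC1 (Entrez gene 51660, chromosome 6 from 166778407 to 166796501, minus strand) was the only member called higher. It had 6.39 and 7.20 FPKM in PC9 and 16.7 and 18.3 FPKM in PC9OR, 181 and 254 expected counts against 647 and 725. The log2 fold change was 1.37 with a standard error of 0.17, between 1.27 and 1.46 with 1 library left out. MPC1 has the shortest counted transcript of the members, 978 bases, and the offset for length lowered the value to 1.00. MPC2, its partner in the carrier, had 2.91 and 3.39 FPKM in PC9 and 4.58 and 4.91 FPKM in PC9OR, with a log2 fold change of 0.61 (SE 0.18; edgeR adjusted p = 0.0538). The FPKM ratio of MPC1 to MPC2 averaged 2.16 ± 0.0509 (SD, n = 2) in PC9 cells, against 3.69 ± 0.0527 (SD, n = 2) in PC9OR.

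**Figure D3:**
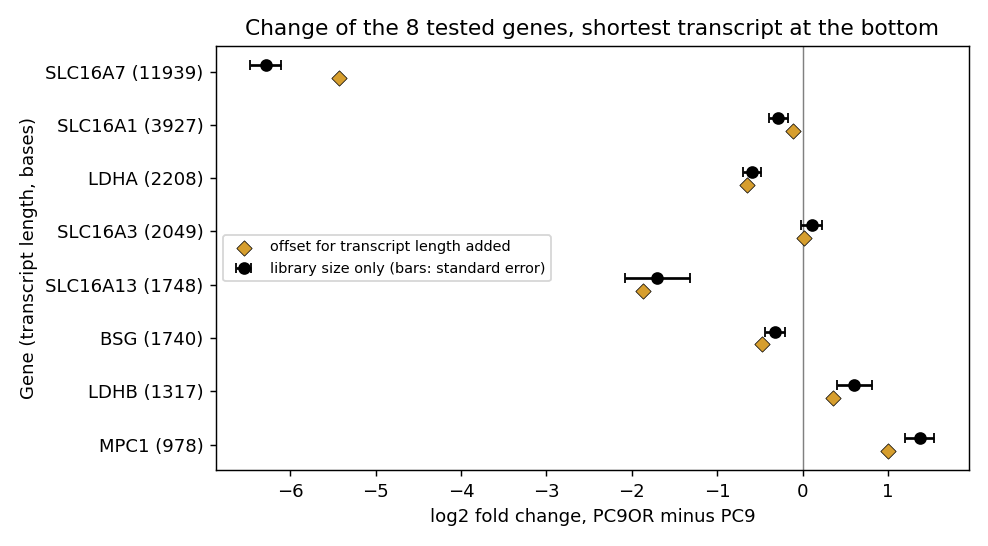
Log2 fold change (PC9OR minus PC9) of the 8 tested members, ordered by transcript length in bases, from the fit with library size only (circles, bars are the standard error) and from the fit with an offset for transcript length (diamonds). SLC16A7 has the largest drop in either fit, -6.29 and -5.43, and MPC1 the largest gain, 1.37 and 1.00.

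Ordered by FPKM, PC9 expressed LDHA above LDHB, BSG, SLC16A1 and SLC16A3, followed by MPC1, SLC16A13, SLC16A7 and SLC16A9. The ranges of MPC1 and SLC16A13, and of SLC16A13 and SLC16A7, overlapped, so these neighbours in the order did not differ beyond their spread. In PC9OR the order was LDHB, LDHA, BSG, SLC16A1, SLC16A3, MPC1 and SLC16A13, with SLC16A7 and SLC16A9 overlapping at the bottom at 0.03 to 0.05 FPKM.

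The rest of the pathway was read from 6 lists of 56 genes, of which 50 were listed in at least 1 library and 43 were tested. edgeR's test called 4 of the 43 higher in PC9OR and 13 lower, against the 15.6% and 20.8% of all tested genes given above. These shares also stand beside the counts of each single list below. Of the 43, 26 were not called, and the median log2 fold change was -0.17. Past 2-fold the counts were 4 and 3, and with the offset for length they were 5 and 8. These counts depend on single libraries. Both the higher and the lower count went up without a PC9 library and down without a PC9OR library. These fits leave a single library in 1 line, and the share of all genes they called was not computed.

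Among the other SLC16 carriers, 1 of 5 tested genes rose and 1 fell. SLC16A5, which encodes MCT6, had 5.29 and 4.04 FPKM in PC9 and 1.48 and 1.39 FPKM in PC9OR, a log2 fold change of -1.67 (SE 0.23; edgeR adjusted p = 0.00961). SLC16A10, a carrier of aromatic amino acids, rose from 0.12 and 0.11 FPKM to 0.31 and 0.35 FPKM, a log2 fold change of 1.54 (SE 0.41; edgeR adjusted p = 0.0409). This gain was the only one called in the family and it was at a level far below that of SLC16A7 in PC9. SLC16A8 and SLC16A11 were listed in no library, and SLC16A12 and SLC16A14 were not kept by the count filter.

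Of the sodium-coupled carriers, chaperone and lactate receptor, 2 genes were tested and EMB, given above, fell. SLC5A8 and SLC5A12, the sodium-coupled carriers, were listed in no library. No other lactate dehydrogenase was tested, since LDHAL6A was listed in no library and LDHC, LDHD and LDHAL6B were not kept by the filter. LDHC, the testis subunit, had 1 count in 1 library, and LDHD, which handles D-lactate, had 7 and 12 counts in PC9 and 3 and 1 in PC9OR.

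In the list for pyruvate use in mitochondria, 1 of 18 tested genes rose and 4 fell. PDHB, a subunit of the first enzyme of the pyruvate dehydrogenase complex, rose from 32.8 and 48.7 FPKM in PC9 to 80.9 and 84.7 FPKM in PC9OR, a log2 fold change of 1.05 (SE 0.21; edgeR adjusted p = 0.0215). The phosphatases that activate that enzyme fell, PDP2 with a log2 fold change of -0.94 (SE 0.15; edgeR adjusted p = 0.0120) and PDP1 with -0.58 (SE 0.11; edgeR adjusted p = 0.0187). So did malic enzyme ME1, at -0.41 (SE 0.11; edgeR adjusted p = 0.0403). With the offset for length PDP1 and ME1 were no longer called, at -0.36 and -0.27.

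The kinases that switch the enzyme off did not move as a group. PDK3 fell in counts, with a log2 fold change of -0.80 (SE 0.16; edgeR adjusted p = 0.0193), but its FPKM, 3.83 and 5.00 in PC9 and 4.12 and 3.37 in PC9OR, overlapped between the lines, and its deposited length, which is weighted by isoform, varied by 68.9% of its mean between libraries. PDK1, PDK2 and PDK4 had log2 fold changes of 0.03, 0.32 and -0.09 and edgeR adjusted p of 0.877, 0.239 and 0.790. GPT, the cytosolic alanine aminotransferase, was not kept by the filter.

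All 7 tested genes for proton and bicarbonate handling were called, 2 higher and 5 lower, where the rule called 15.6% and 20.8% of all tested genes. The list was chosen with earlier results of these data known, so this count is a description. CA9, a carbonic anhydrase on the cell surface and a known target of hypoxia-inducible factors, rose from 0.93 and 1.13 FPKM in PC9 to 7.38 and 7.53 FPKM in PC9OR, a log2 fold change of 2.88 (SE 0.22; edgeR adjusted p = 0.00448). SLC4A8, a sodium-driven chloride and bicarbonate exchanger, rose from 1.88 and 1.94 FPKM to 3.92 and 4.35 FPKM, a log2 fold change of 1.42 (SE 0.12; edgeR adjusted p = 0.00479). SLC4A4, a sodium bicarbonate cotransporter, fell from 0.32 and 0.45 FPKM to 0.07 and 0.06 FPKM, a log2 fold change of -2.46 (SE 0.36; edgeR adjusted p = 0.0110). The log2 fold changes of cytosolic carbonic anhydrase CA2 (-0.59, edgeR adjusted p = 0.0495) and the bicarbonate carrier SLC4A7 (-0.56, edgeR adjusted p = 0.0154) were smaller. With the offset for length SLC4A7 was at -0.03 and not called, and 3 of the list were lower. CA12 was not kept by the filter.

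**Figure D4:**
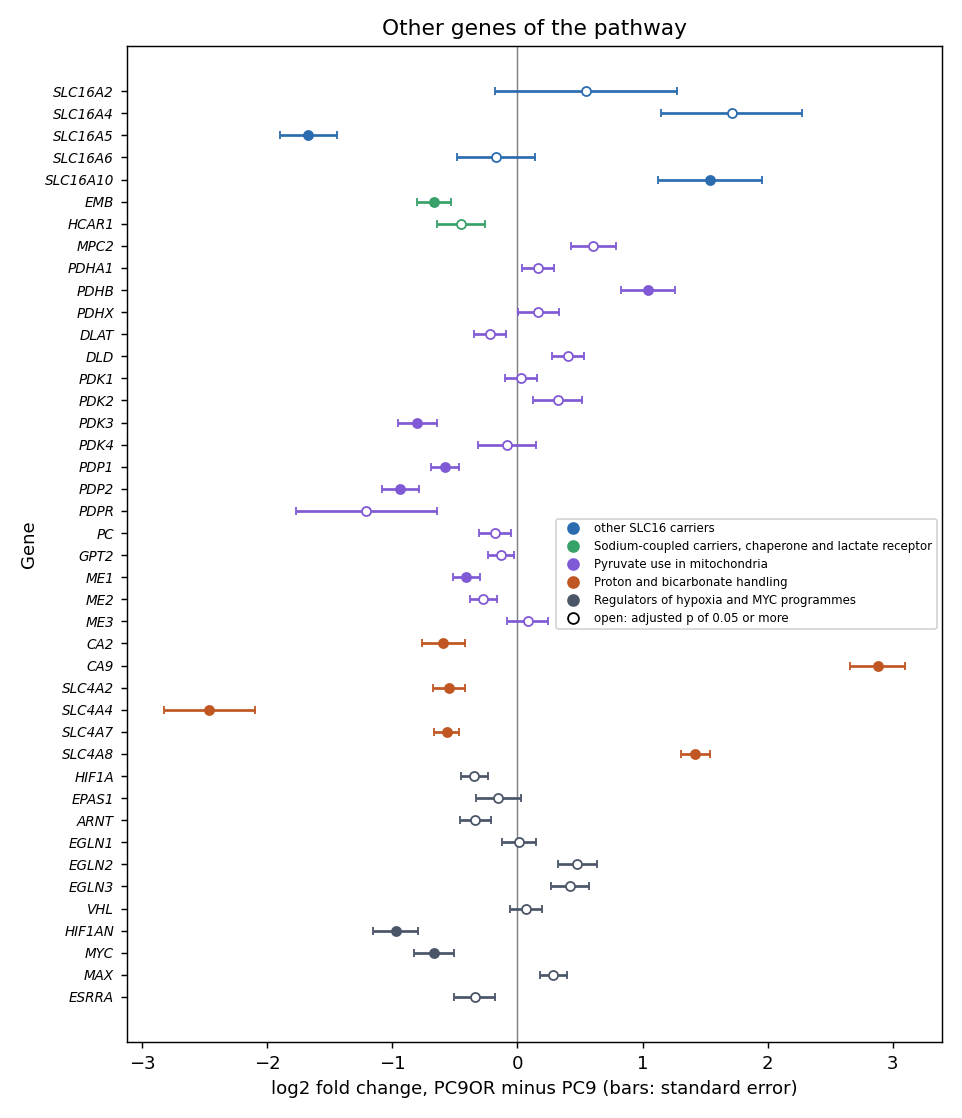
Log2 fold change (PC9OR minus PC9) of 42 tested pathway genes, coloured by list, with bars for the standard error and open circles for genes with an adjusted p of 0.05 or more. CA9 is farthest to the right at 2.88, and SLC4A4 is farthest to the left at -2.46.

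The regulators of hypoxia and MYC programmes, which act upstream of many of these genes, gave 0 called higher and 2 called lower of 11 tested in edgeR's test. At an unadjusted p under 0.05 that test had 3 of the 11 higher, against 3137 of all 13148 tested genes. At an adjusted p under 0.05 DESeq2's Wald test called 1 higher and limma called 0. HIF1AN, an inhibitor of hypoxia-inducible factors, fell with a log2 fold change of -0.97 (SE 0.18; edgeR adjusted p = 0.0173), and MYC fell from 113 and 89.0 FPKM in PC9 to 68.0 and 56.4 FPKM in PC9OR, a log2 fold change of -0.67 (SE 0.16; edgeR adjusted p = 0.0311). PPARGC1A was listed in no library.

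Hypoxia-inducible factors bind core letters such as ACGTG, the only form of that core searched here, which read CACGT on the opposite strand. MYC binds the E-box CACGTG, which contains ACGTG. Both were searched on both strands of the 250 bases before each start in the RefSeq promoter table for GRCh38.p14, which matched 7 of the 9 members with 15 starts. ACGTG was present before 4 of the 15 starts, those of LDHA, SLC16A3, BSG and SLC16A9, and before 18.5% of all 35116 starts in the table. CACGTG was present before 3 of the 15, and before 6.34% of all starts. The sites of the members with abundant transcripts are shown because they carry the letters that these factors recognise, with the matched letters in capitals and the name followed by the window. All are on the plus strand.
LDHA start 1, site 1 (chr11:18394366-18394395): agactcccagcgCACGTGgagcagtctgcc
LDHA start 1, site 2 (chr11:18394464-18394493): cagcccgactcaCACGTGggttcccgcacg
LDHA start 1, site 3 (chr11:18394478-18394507): cgtgggttcccgCACGTccgccggcccccc
SLC16A3 start 2, site 1 (chr17:82228962-82228991): cgccaggcggtgACGTGcgcgggggacgtg
SLC16A3 start 2, site 2 (chr17:82228975-82229004): cgtgcgcgggggACGTGccgcgccagcgac
BSG start 2 (chr19:572391-572420): gcaacgccgggtCACGTGcgccgccgcccg
The first and second LDHA sites are E-boxes that begin 185 and 87 bases before the start, and the third, at 73 bases, is the core read on the opposite strand. Those of SLC16A3 begin 68 and 55 bases before the start, and that of BSG 193 bases before it. Members with these letters had log2 fold changes from -0.59 for LDHA to 0.11 for SLC16A3. The letters were not found before the starts of SLC16A7, LDHB and MPC1, and a match is a description of the sequence, not a bound site.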

How the data were processed

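The authors deposited, per gene and library, an expected count from RSEM 1.2.12 on Bowtie2 2.2.5 alignments (tools, and the build GRCh37, per the submitters' processing notes) and an FPKM value. The expected count is not normalized, and the deposited FPKM is scaled by transcript length and library size. Reads came from a stranded TruSeq kit. Symbols were matched for 16755 of 16813 Entrez genes (99.66%). Library totals were 23201307 and 29062064 for PC9 and 31948974 and 32203998 for PC9OR. Genes not listed in a library were set to 0.

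Expected counts, rounded to whole numbers, entered edgeR 4.0.16 under R 4.3.3 (normalization by TMM, filterByExpr, estimateDisp, glmQLFit, glmQLFTest), with calls at a Benjamini-Hochberg adjusted p under 0.05 over 13148 genes. The study compared the lines with DEGseq, which was not used here. The standard error is the log2 fold change divided by the square root of F. CPM used TMM-adjusted library sizes. Scripts were tested on simulated data. Alternatives used DESeq2 1.42.0, limma 3.58.1 and length offsets fitted with mgcv 1.9.3. Positions are from GENCODE lifted to GRCh37. Promoter windows are from RefSeq on GRCh38.p14 and were not converted.

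The members and gene lists were chosen with earlier results of these data known. Named are the 9 members, up to 4 called genes of each list and direction by size of change, genes not tested, MPC2, EMB, LDHC, LDHD, PDK1 to PDK4, SLC16A1-AS1, and the 5 genes nearest to SLC16A7 in centred log2 CPM. The result for 1 gene of the lists is not reported here, though the list counts include it.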

Additional observations from a re-analysis of the deposited data

How the results depend on the processing

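Of the 16 alternatives, 14 give a log2 fold change of their own, and none of these changed its sign for a tested member. The rest only move the call threshold of the main fit and cannot change a sign. A count of genes called has no sign to reverse, and its changes are given below. The members were chosen with the difference between the lines known, so a direction they keep is no support for it. More than 2-fold and an adjusted p under 0.001, the threshold that the study states, calls 0 genes of any kind in edgeR's test (smallest adjusted p 0.00155). At that threshold the counts of members and of other pathway genes were 0 in each direction, as with limma. With DESeq2's Wald test 1 member passed it as higher, 2 members as lower, and 3 pathway genes in each direction. Among all genes tested, 502 passed it as higher in PC9OR and 1227 as lower with DESeq2. The few member and pathway calls are therefore only a description. At an unadjusted p under 0.05, edgeR's test had 2 members higher, 5 lower, 10 pathway genes higher and 15 lower. Of all 13148 tested genes, 3137 were higher and 3516 lower at that cut. The count of members higher in PC9OR, 1, was 2 with DESeq2's Wald test, with the replicate block, and with the length offset and the block, since LDHB joined MPC1, and it ranged from 1 to 2 with 1 library left out. The count of members lower, 3, ranged from 1 to 5. The 4 other pathway genes called higher became 7 with the length offset and the replicate block and ranged from 2 to 10 with 1 library left out. The 13 called lower became 8 with the length offset and 3 past 2-fold, and ranged from 4 to 18. LDHA was not called by limma on log2(FPKM + 1) or log2(FPKM + 0.1). The log2 fold change of SLC16A7, -6.29, was -2.20 on log2(FPKM + 1), -4.75 on log2(FPKM + 0.1), -5.43 with the length offset and -5.43 with the offset and the replicate block. A pseudocount understates the change of a gene near 0. As counts per kilobase with TMM, the summed transporter level was 167.8 in PC9 and 150.5 in PC9OR in place of 122.1 and 107.6. SLC16A8 was listed in no library, so adding it to the sum changed nothing. The same replicate numbers do not pair the libraries, since no source says so, only 2 pairs exist and the deviations of same-numbered libraries correlated at 0.055 across genes. A fit with a single library in a line assumes that it varies like the other line. With 2 libraries a line and PC9 replicates that differ along transcript length, changes of the size of those of LDHB, BSG and SLC16A1 passed or missed the threshold depending on the fit, and the cause was not tested.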
